A study of Mus musculus with 6 samples.

Results

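The genes described here are the 10 members of the Myc, Max and ChREBP network with Txnip: Myc, Mycl, Max, Mxi1, Mxd4, Mnt, Mga, Mlx, Mlxipl and Txnip. They were taken by name from a fixed list, which was chosen with earlier results of these data known. Their Ensembl row identifiers were mapped to mouse symbols. All 10 were found among the 53379 genes of the deposited tables, and all 10 were among the 16929 genes with enough counts to be tested. The series holds 6 RNA sequencing libraries of Min6, an insulin-secreting cell line from a mouse insulinoma. Of these, 3 hold RNA recovered with an antibody against the RNA-binding protein hnRNPK (IP) and 3 hold total RNA from the input lysate. Cells of both groups were at passage 31 and had spent 30 h in 25 mM glucose with 500 µM palmitic acid, which the labels call glucolipotoxicity. Cells without this treatment and an IP with a control antibody were not analysed here, so the comparison gives the share of a transcript in the IP relative to the lysate and cannot tell apart binding to hnRNPK and retention on beads or antibody. No gene was altered in these cells, and Min6 is a tumour line that stands in for the beta cell.

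Proteins of this network carry a basic helix-loop-helix leucine zipper and bind E-box DNA in pairs. Myc, Mycl and Mycn activate growth genes when paired with Max, and the Mxd proteins (among them Mxi1 and Mxd4), Mnt and Mga pair with the same Max to repress. A parallel arm pairs Mlx with ChREBP, which Mlxipl encodes, or with its relative MondoA, encoded by Mlxip, and activates genes when glucose metabolites are plentiful. Txnip is a leading target of that arm in beta cells and encodes an alpha-arrestin that inhibits thioredoxin, limits glucose uptake and is linked to beta cell death at high glucose. hnRNPK binds C-rich single-stranded nucleic acid through its KH domains, and in human cells it has been described on a C-rich element of the MYC promoter.

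Stretches that show the C-rich content of these mRNAs are printed first, because C-rich RNA is what hnRNPK is known to bind. Each is the 25-base window with the most C in the transcript with the longest coding sequence in GENCODE release M21 (GRCm38), the first such window where several tied. Runs of at least 3 C are in capitals. All 4 windows printed here lie within a single coding exon on the plus strand, and none is a mapped binding site. Windows of the other members held 19 C (Max, enriched), 16 (Mycl, no call, and Mxi1, depleted), 15 (Mxd4, enriched) and 14 (Mga and Mlx, both enriched). The number of C in the window thus did not follow the calls. The window of Mnt, a gene at the enriched end, holds 19 C (chr11:74842785-74842809), that of Mlxipl, also at that end, 17 C (chr5:135132421-135132445), that of Myc, without a call, 17 C (chr15:61987690-61987714), and that of Txnip, without a call, 13 C (chr3:96559131-96559155).
Mnt: CCCCtcctCCCCCacctgccaCCCC
Mlxipl: CCCCtctccttccattCCCCaCCCC
Myc: CCCaCCCCgCCCCtgtCCCCgagcc
Txnip: ctcgatcgCCCCagccagccaactc

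A paired E-box-like motif, the kind of element through which ChREBP is known to act, was searched in promoters. Among RefSeq promoters of GRCm38.p6 (250 bases before to 50 after each annotated start), 16 of 32851 (0.0487%) held a pair of the E-box-like motif CACGNG with 5 bases between them, searched on both strands, and Txnip was the member with a match. None of the 17 listed ChREBP and MondoA targets with a promoter in the table, a list that does not include Txnip, held the pair. The search took both copies in the same orientation and only within this promoter window. A pair with an inverted copy, or one outside the window, could be missed. A gene without a match may therefore still hold such an element. The stretch lies on the plus strand at chr3:96557866-96557894 with its motif beginning 85 bases before the start, and the motif letters are in capitals.
Txnip promoter: actgtgCACGAGggctgCACGAGcctcca
The plain E-box CACGTG, which reads the same on both strands, was in 7.15% of all promoters and in a promoter of Max, Mlx, Mlxipl, Mnt and Mxd4. It was not in those of Mga, Mxi1, Mycl or Txnip. A match is a description of the letters and not a bound site. The promoter of Myc was not used here.

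Library totals ranged from 38764925 to 52735957 counts. The biological coefficient of variation over all tested genes was 42.6% among IP and 12.1% among total RNA libraries. Markers of the beta cell were abundant, with 12 of 12 tested and a summed level of 8452 to 9593 CPM in IP and 22649 to 32102 CPM in total RNA libraries. Of 7 markers of other islet cells 5 were tested, at 126.6 to 174.8 CPM in IP and 138.7 to 173.6 CPM in total RNA libraries in sum, nearly all of it Gcg, and Hhex had no read. Exocrine and duct markers summed to at most 1.03 CPM in any library, with no read for Prss2, Cpa1, Pnlip, Amy2b and Ptf1a. Those of stromal, endothelial and immune cells summed to 6.58 to 9.92 CPM in IP and 3.12 to 4.43 CPM in total RNA libraries, and their part in the results was not tested.

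In the IP, 6 of the 10 genes were enriched, 1 was depleted and 3 did not pass. The enriched genes were Mlxipl and Mnt, each about 5-fold higher, then Max, Mga, Mxd4 and Mlx, while Mxi1 was depleted and Myc, Mycl and Txnip had no call. A call is a Benjamini-Hochberg (BH) adjusted p under 0.05 over all genes tested in edgeR's quasi-likelihood test. By that rule 28.9% of all tested genes were enriched and 33.6% depleted, 62.4% in all, against 7 of the 10. The median log2 fold change, given throughout as IP minus total RNA, was 0.46 for the 10 genes and −0.07 for all tested genes. In 8 of the 10 genes the groups did not overlap, beside 71.4% of all tested genes. No RNA of known amount ties the groups together, so directions are relative to the scaling. With library totals alone in place of TMM factors the median of all genes shifted by −0.43 and the enriched share of all calls went from 46.3% to 32.1%. Of the 10 genes, 3 (Mlxipl, Mnt and Max) were then enriched and 3 (Mxi1, Mycl and Txnip) depleted, beside 20.4% and 43.0% of all genes, and their median was 0.030. With an offset that removes the trend of fold change over exonic gene length, 4 (Mlxipl, Mnt, Max and Mlx) were enriched and 1 (Mxi1) depleted, beside 25.9% and 36.7% of all genes. The median of the 10 was then 0.00064 and that of all genes −0.20.

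**Figure D1:**
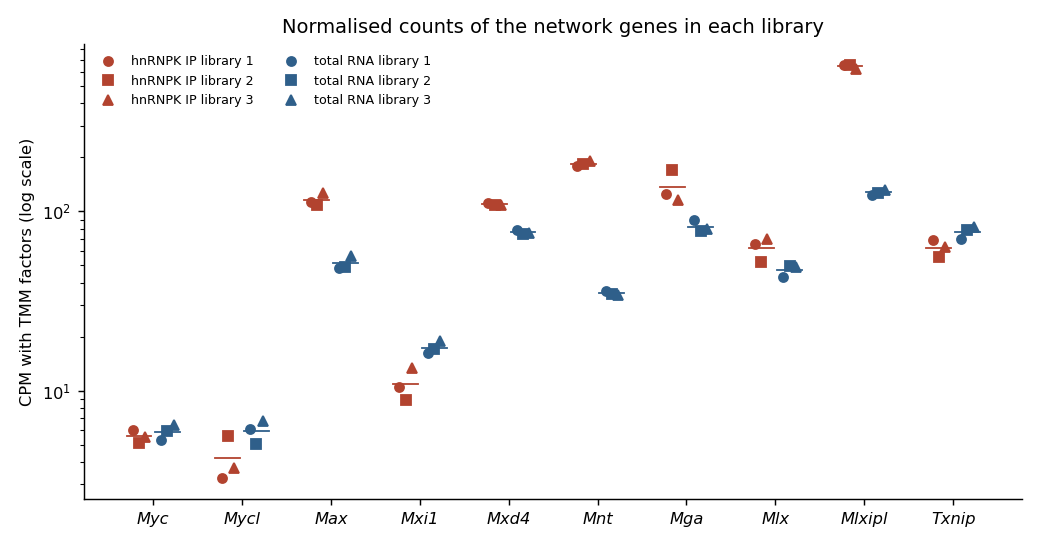
Normalised counts (CPM with TMM factors, log axis) of the 10 genes in each of 3 hnRNPK IP and 3 total RNA libraries, with a bar at each group mean. Mlxipl stands at 625 to 658 CPM in the IP libraries against 123 to 132 in total RNA, while the points of Myc and of Mycl overlap between the groups.

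The Myc genes themselves were scarce and had no call. Myc, the proto-oncogene that drives growth and ribosome production (ENSMUSG00000022346.15, chromosome 15, 61985391 to 61990374), had 6.03, 5.13 and 5.54 CPM in IP libraries 1, 2 and 3 and 5.33, 5.96 and 6.42 CPM in total RNA libraries 1, 2 and 3. The ranges overlap, and IP libraries 1 and 3 lie within that of total RNA. Behind these values are 595 IP reads and 994 from total RNA. The log2 fold change was −0.09 ± 0.20 (SE; edgeR quasi-likelihood, BH-adjusted p = 0.736), a difference smaller than the spread between libraries. Over the alternatives it ran from −0.52 to 0.088, the latter with the length offset. None was called (BH-adjusted p 0.0519 to 0.974 over the edgeR, DESeq2 and limma fits). Myc thus has no stable direction.

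Mycl, a relative of Myc with a more restricted pattern of expression (ENSMUSG00000028654.13, chromosome 4, 122995652 to 123002485), had 3.25, 5.61 and 3.72 CPM in the IP libraries and 6.10, 5.03 and 6.74 CPM in total RNA. IP library 2 reaches into the range of total RNA and the other IP libraries lie below it. Its log2 fold change was −0.51 ± 0.28 (SE; edgeR quasi-likelihood, BH-adjusted p = 0.147). Without IP library 2 it was −0.77 and called, as it was at −0.94 with library totals alone (BH-adjusted p = 0.0162 and 0.0163 by edgeR, range over the alternatives 0.0162 to 0.422). Mycn, another Myc gene, was also scarce, at 2.77 ± 0.917 CPM in the IP and 5.13 ± 0.695 CPM in total RNA (SD, n = 3 each). It was called depleted at a log2 fold change of −0.89 ± 0.32 (SE). Leaving out any 1 total RNA library ended that call, at −0.97 to −0.80.

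Max, the shared partner of activators and repressors, was enriched. Max (ENSMUSG00000059436.13, chromosome 12, 76937269 to 76962201) had 113, 108 and 127 CPM in the IP libraries and 48.2, 49.0 and 56.4 CPM in total RNA. All IP libraries lie well above all total RNA libraries. The fold change was 2.27 and the log2 fold change 1.18 ± 0.11 (SE; edgeR quasi-likelihood, BH-adjusted p = 3.74e-05). The direction and call were the same in every alternative run, with values from 0.75 with library totals alone to 1.29 without total RNA replicate 3.

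The repressors that compete with Myc for Max divided. Mnt, a widely expressed repressor that recruits Sin3 corepressors (ENSMUSG00000000282.12, chromosome 11, 74830920 to 74845725), had 179, 184 and 190 CPM in the IP libraries and 35.9, 34.5 and 34.1 CPM in total RNA. The groups are far apart and each is tight. The fold change was 5.30 and the log2 fold change 2.41 ± 0.08 (SE; edgeR quasi-likelihood, BH-adjusted p = 1.24e-06), from 1.97 to 2.46 over the alternatives.

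Mxi1, a Mxd family repressor (ENSMUSG00000025025.13, chromosome 19, 53310518 to 53375810), had the lowest log2 fold change of the 10 genes. It had 10.5, 8.92 and 13.4 CPM in the IP libraries and 16.3, 17.1 and 18.9 CPM in total RNA. The groups do not overlap, although IP library 3 comes near total RNA library 1. On the log2 scale the fold change was −0.67 ± 0.19 (SE; edgeR quasi-likelihood, BH-adjusted p = 0.0143). The call ended without IP library 1 (−0.66) or without total RNA library 2 (−0.65) or 3 (−0.57), and the direction was the same in every alternative run.

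Mxd4, a repressor of the same family associated with differentiating cells (ENSMUSG00000037235.13, chromosome 5, 34173883 to 34187720), had 111, 108 and 109 CPM in the IP libraries and 79.0, 74.6 and 75.9 CPM in total RNA. All IP libraries are higher, by a modest margin. The log2 fold change was 0.52 ± 0.08 (SE; edgeR quasi-likelihood, BH-adjusted p = 0.000691). The value was 0.083 with library totals alone, while the length offset gave −0.087, neither of them called (BH-adjusted p = 0.425 and 0.378 by edgeR, range over the alternatives 9.71e-11 to 0.425).

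Mga, a very long protein that joins a T-box to its helix-loop-helix domain and belongs to a Polycomb complex (ENSMUSG00000033943.15, chromosome 2, 119897228 to 119969581), had 125, 169 and 116 CPM in the IP libraries and 89.3, 77.4 and 79.9 CPM in total RNA. All IP libraries are higher and IP library 2 is the highest of them. The log2 fold change of 0.74 ± 0.15 (SE; edgeR quasi-likelihood, BH-adjusted p = 0.00330) was 0.30 with library totals alone, while the length offset gave −0.21, without a call in either (BH-adjusted p = 0.120 and 0.262 by edgeR, range over the alternatives 7.26e-06 to 0.262). Its exons span 15.3 kb, the longest of the 10 genes. The remaining Mxd genes also went apart. Mxd1 was enriched, at 55.6 ± 14.4 against 21.3 ± 3.07 CPM (SD, n = 3 each; log2 fold change 1.39 ± 0.20, SE). Mxd3 was depleted, at 22.0 ± 3.97 against 32.2 ± 3.82 CPM (log2 fold change −0.55 ± 0.17), a call that ended when total RNA library 2 (−0.47) or 3 (−0.46) was left out and with the length offset (−0.27).

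Both genes for the glucose-responsive partners of Mlx were among the most enriched of the network. Mlxipl, which encodes ChREBP (ENSMUSG00000005373.13, chromosome 5, 135089890 to 135138382), had 658, 652 and 625 CPM in the IP libraries and 123, 127 and 132 CPM in total RNA. The libraries of each group lie close together and the groups are far apart. The fold change was 5.06 and the log2 fold change 2.34 ± 0.08 (SE; edgeR quasi-likelihood, BH-adjusted p = 1.23e-06), from 1.91 to 2.40 over the alternatives. Mlxip, which encodes MondoA, had 313, 369 and 265 CPM in the IP libraries against 62.1, 55.2 and 54.0 CPM in total RNA. Its log2 fold change was 2.47 ± 0.14 (SE; edgeR quasi-likelihood, BH-adjusted p = 3.98e-06).

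Mlx, the partner that both of these proteins need to bind DNA (ENSMUSG00000017801.15, chromosome 11, 101087277 to 101092207), had 66.1, 51.9 and 69.9 CPM in the IP libraries and 42.8, 49.6 and 49.2 CPM in total RNA. The IP libraries are higher, but IP library 2 is barely above total RNA libraries 2 and 3. The log2 fold change was 0.41 ± 0.13 (SE; edgeR quasi-likelihood, BH-adjusted p = 0.0290). It did not pass when IP library 1 (0.35) or 3 (0.27), or total RNA library 1 (0.38) or 3 (0.47), was left out. With library totals alone it was −0.023, and the length offset gave 0.82, which was called. Mlx shares 385 exonic bases with Psmc3ip on the opposite strand, which was depleted (2.61 ± 0.530 against 21.5 ± 1.37 CPM, SD, n = 3 each). No source used here gives the strand setting of the counts, so reads of the shared bases cannot be assigned.

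Txnip lay just under total RNA, without a call. Txnip (ENSMUSG00000038393.14, chromosome 3, 96557957 to 96561883) had 68.9, 55.8 and 63.7 CPM in the IP libraries and 70.1, 78.4 and 81.8 CPM in total RNA. The groups do not overlap, yet IP library 1 and total RNA library 1 are nearly level. Its log2 fold change was −0.29 ± 0.11 (SE; edgeR quasi-likelihood, BH-adjusted p = 0.0549). It was called at −0.72 with library totals alone and at −0.29 with limma-voom (adjusted p = 0.000733 by edgeR and 0.0424 by limma, range over the alternatives 0.000733 to 0.267). Gm15441, an antisense gene that shares 606 exonic bases with Txnip, was near 0, at 0.142 ± 0.128 and 0.422 ± 0.0696 CPM (SD, n = 3 each). Gm43500, which overlaps 235 exonic bases of Mlxipl on the opposite strand, had 2.30 ± 1.16 and 1.98 ± 0.954 CPM. Gm42846 and Gm10197, which overlap exons of Mxd4 and of Mxi1 on the opposite strand, had no read in any library.

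**Figure D2:**
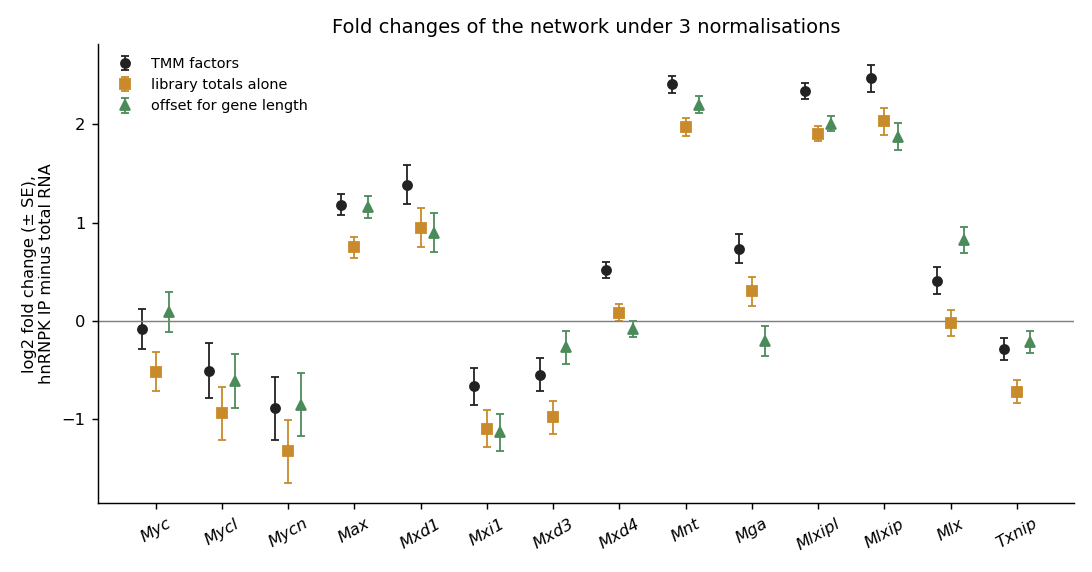
Log2 fold changes (hnRNPK IP minus total RNA, bars ± SE from the edgeR fit of 3 libraries a group) of the 10 genes and of Mycn, Mxd1, Mxd3 and Mlxip, with TMM factors, library totals alone or the length offset. Mnt, Mlxipl, Mlxip, Max and Mxd1 stay above 0 with each of the 3, while Mxd4, Mga, Mlx and Myc cross 0.

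Ratios between members within a library do not depend on a scaling factor per library, and 5 pairs of partners, rivals or regulator and target were compared, chosen after the values were seen. The ratio of Mlxipl to Mlx counts was 9.95, 12.6 and 8.95 in the IP libraries and 2.88, 2.56 and 2.68 in total RNA. The ratio of Mlxipl to Txnip was 9.54, 11.7 and 9.82 against 1.76, 1.62 and 1.61. ChREBP mRNA was thus higher relative to both its partner and its target in every IP library, by 3.84-fold and 6.20-fold on average. The difference of the log2 fold changes of Mlxipl and Mlx, 1.93, was 1.19 with the length offset, which differs between genes of unequal length. Mnt was above Max in each IP library, at ratios of 1.59, 1.70 and 1.50, and below it in each total RNA library, at 0.744, 0.705 and 0.604. Max exceeded Myc 18.8, 21.1 and 22.9 times in the IP against 9.04, 8.23 and 8.79 times in total RNA. Mxd4 exceeded Mxi1 10.6, 12.2 and 8.13 times against 4.84, 4.37 and 4.03 times. Each of the 5 ratios was higher in all 3 IP libraries than in any total RNA library. A two-sided exact permutation test then gives p = 0.1, the smallest that 3 against 3 libraries allow. After Benjamini-Hochberg adjustment over the 5 pairs it was also 0.1. Neither value allows for the choice of pairs after the values were seen, so the separation is a description only.

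**Figure D3:**
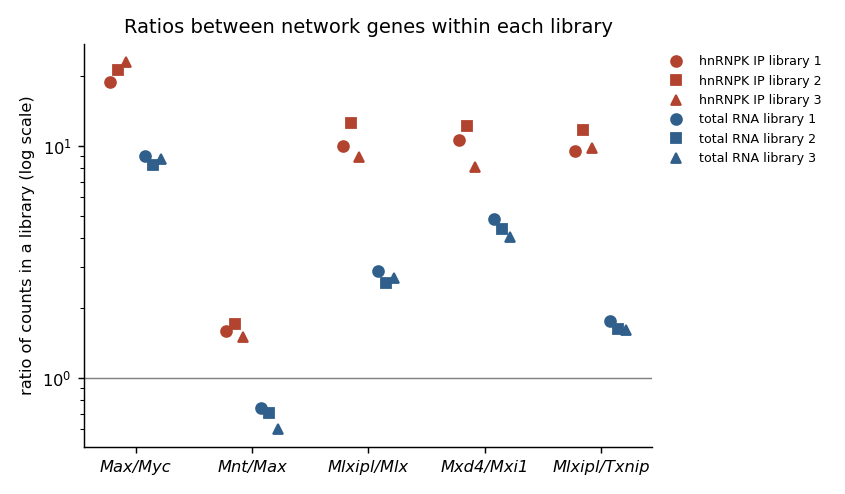
Ratios of the counts of 5 gene pairs within each library (log axis, line at 1), for 3 hnRNPK IP and 3 total RNA libraries. The points of the groups do not overlap for any pair, and Mnt/Max lies above 1 in the IP (1.50 to 1.70) and below 1 in total RNA (0.604 to 0.744).

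Levels of different genes were compared as CPM per kb of exonic length, taken over the exons of all transcripts of a gene. For some genes this is far longer than the transcript with the longest coding sequence. The lengths are 8483 against 3872 bases for Mxd4, 6823 against 2627 for Mxi1 and 5538 against 3622 for Mlxipl. They are closer for Txnip (3123 and 2827) and Mlx (1999 and 1965). The order given here depends on this choice of length, and an order by transcript length was not computed. In total RNA, Txnip (24.6 ± 1.92 CPM per kb), Mlx (23.6 ± 1.91) and Mlxipl (23.0 ± 0.784; SD, n = 3 each) were highest, and neighbours among these overlapped in range. They were followed by Max at 14.2 ± 1.26, Mxd4 at 9.02 ± 0.264, Mnt at 7.53 ± 0.202 and Mga at 5.36 ± 0.411 CPM per kb. Mxi1 at 2.55 ± 0.192, Myc at 2.17 ± 0.201 and Mycl at 1.48 ± 0.215 CPM per kb were lowest. From Mlxipl downward no neighbours overlapped, so by this measure the repressor mRNAs Mxd4, Mnt and Mga each exceeded Myc mRNA in these cells. In the IP the order by this measure was different at the top. Mlxipl led at 116 ± 3.15 CPM per kb, then Mnt at 39.9 ± 1.19, and then Max at 32.3 ± 2.66 and Mlx at 31.3 ± 4.73, which overlapped. Txnip came next at 20.1 ± 2.11 CPM per kb, above Mxd4 (12.9 ± 0.180) and Mga (8.92 ± 1.87). Myc, Mxi1 and Mycl were last at 2.05 ± 0.166, 1.61 ± 0.332 and 1.04 ± 0.310, each overlapping its neighbour among these 3.

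Genes that work with or under the network were described as 5 lists, by counts and medians beside the 28.9% enriched, 33.6% depleted and median of −0.07 of all tested genes. Of 21 tested ChREBP and MondoA targets (of 23 listed), 11 were enriched and 4 depleted. Their median log2 fold change of 0.39 was −0.046 with library totals alone. The highest were Nr1d1, Pklr and Gpd1. Nr1d1, which encodes a heme-binding clock repressor, had 63.6 ± 2.66 against 14.6 ± 1.39 CPM (log2 fold change 2.12 ± 0.11). Pklr, the pyruvate kinase gene long used to study ChREBP, had 37.4 ± 4.21 against 9.02 ± 0.966 CPM (2.05 ± 0.15). The glycerol phosphate dehydrogenase Gpd1 had 37.6 ± 7.53 against 9.90 ± 0.440 CPM (1.92 ± 0.17). CPM are given as mean ± SD (n = 3 each) and log2 fold changes ± SE here and below. The lowest were Thrsp, a lipogenic factor with 21 IP reads, at −2.81 ± 0.71 (without a call at −2.66 when total RNA library 3 was left out), ketohexokinase Khk at −2.29 ± 0.35 and the transketolase Tkt at −1.59 ± 0.11. With the offset for gene length 9 were enriched and 7 depleted.

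Of 37 tested Myc targets (of 38; Hk2 did not reach the filter) 5 were enriched and 27 depleted, and the median was −1.03. The enriched genes with the highest log2 fold changes were the amino acid transporter Slc7a5, at 2555 ± 243 against 459 ± 29.7 CPM (2.48 ± 0.10), cyclin D2, Ccnd2, at 1612 ± 501 against 410 ± 117 CPM (1.97 ± 0.27), and Pa2g4, a regulator of proliferation, at 1.31 ± 0.10. Lowest were the mitochondrial cochaperonin Hspe1 at 1.72 ± 1.33 against 29.3 ± 3.16 CPM (−4.07 ± 0.57), the nucleolar methyltransferase Fbl at 1.61 ± 1.38 against 14.2 ± 0.539 CPM (−3.13 ± 0.71) and the nucleoside diphosphate kinase Nme1 at −2.54 ± 0.27. IP library 2 had the lowest level of Hspe1, Fbl and Nme1 of all libraries, at 0.364, 0.152 and 3.46 CPM.

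Cofactors of Myc and of the repressors had 7 enriched and 11 depleted of 24, with a median of −0.36. Highest were Hcfc1, a chromatin cofactor that binds Myc (1.61 ± 0.08), and the corepressor scaffold Sin3a, which Mxd and Mnt proteins recruit (1.22 ± 0.10). The chromatin remodeller Ep400 came next (1.10 ± 0.15, but 0.21 and not called with the length offset). Sin3b, the relative of Sin3a in the same list, was depleted (−0.67 ± 0.09). Lowest were the ATPase Ruvbl1 (−2.65 ± 0.39), the deacetylase Hdac2, which acts with Sin3 (−1.95 ± 0.14), and Zbtb17, whose product Miz1 brings Myc to genes it represses (−1.73 ± 0.19). Genes for turnover and modification of Myc had 8 enriched and 8 depleted of 17, with a median of −0.38. Both glycogen synthase kinases, which phosphorylate Myc and mark it for destruction, were enriched, Gsk3a at 481 ± 70.5 against 84.2 ± 3.48 CPM (2.52 ± 0.12) and Gsk3b at 741 ± 123 against 167 ± 18.9 CPM (2.15 ± 0.14), as was the deubiquitinase Usp22 (1.43 ± 0.10). The lowest of the list were the ubiquitin ligase genes Stub1 (−2.60 ± 0.17), Fbxw7, which reads that phosphorylation (−1.03 ± 0.16), and Skp2 (−0.99 ± 0.18). Huwe1 (0.76 ± 0.14) and Trim32 (1.00 ± 0.11), ubiquitin ligase genes of the same list, were enriched.

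Around Txnip, 15 of 17 genes of the thioredoxin system and the alpha-arrestins were tested (Nlrp3 and Arrdc5 did not reach the filter), with 5 enriched, 8 depleted and a median of −0.51. Txn1, the cytosolic thioredoxin that Txnip inhibits, was depleted (log2 fold change −3.96 ± 0.28). It had 6.20, 2.79 and 4.79 CPM in the IP libraries against 59.5, 78.9 and 77.2 CPM in total RNA. The mitochondrial thioredoxin Txn2 was enriched, at 164, 129 and 196 against 64.9, 83.2 and 81.9 CPM (1.09 ± 0.17). Both thioredoxin genes have groups that do not overlap, in opposite directions. Also enriched were Prkaa1, a catalytic subunit of AMP-activated kinase, which phosphorylates Txnip (2.05 ± 0.08), and Itch, a ubiquitin ligase of Txnip (1.17 ± 0.09). The mitochondrial thioredoxin reductase Txnrd2 (−2.13 ± 0.36) and the alpha-arrestin Arrdc2 (−2.07 ± 0.50) were the other lowest genes. Genes of the 5 lists named with a fold change were picked from the called genes only. Their BH-adjusted p (edgeR quasi-likelihood) lay between 1.32e-06 and 0.00930.

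**Figure D4:**
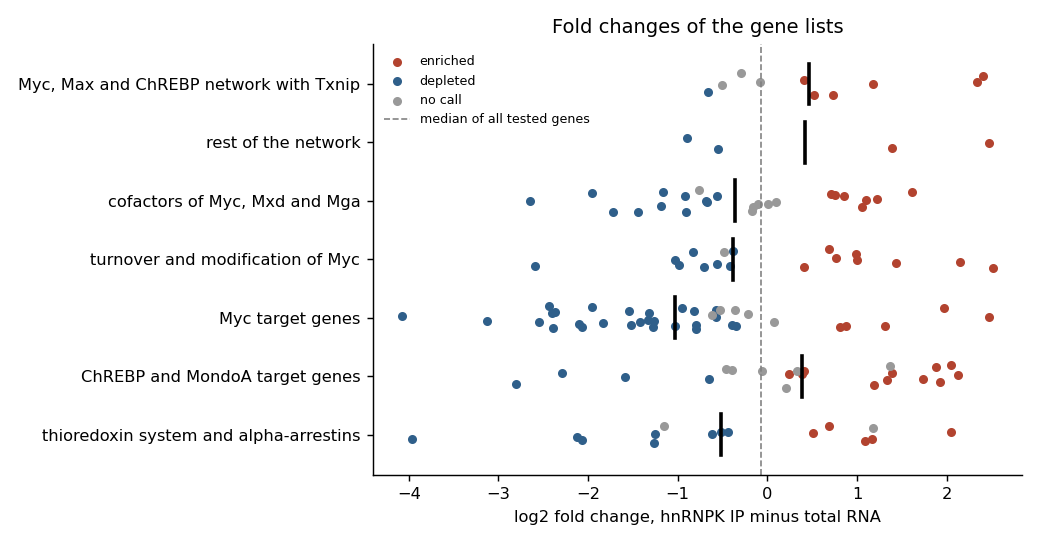
Log2 fold changes (hnRNPK IP minus total RNA) of the 10 genes, of the 4 further network genes and of 5 lists, each point a tested gene placed at random within its row, with the row median as a bar and the median of all tested genes as a dashed line. The medians run from −1.03 for Myc targets to 0.46 for the 10 genes.

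The most enriched members had C-rich coding sequence, and so did some members that were not enriched. Mnt had 62.5 CCC trinucleotides per kb of coding sequence (counted with overlap), above 99.8% of 13481 tested genes with a coding transcript, and Mlxipl 46.2 per kb, above 98.3%. Mycl, without a call, had 44.3 per kb, above 97.7%, Myc 33.0 and the depleted Mxi1 31.5 per kb, above 90.6% and 88.7%. The median over the tested genes was 17.7 per kb, and Max at 16.6, Mxd4 at 14.3 and Mga at 10.7 per kb, all enriched, lay below it. Mxd1, enriched, had 2.92 per kb. In the 3′ untranslated region, Mnt again had the most CCC of the 10 genes, 41.2 per kb and above 92.5% of 13228 tested genes, while Mlxipl had 12.7 per kb, under the median of 14.5. Myc had 4.52 per kb there, above 11.1% of genes. Genes with C-rich coding sequence thus stood among the enriched, the depleted and those without a call, and no test was made of a relation.

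**Figure D5:**
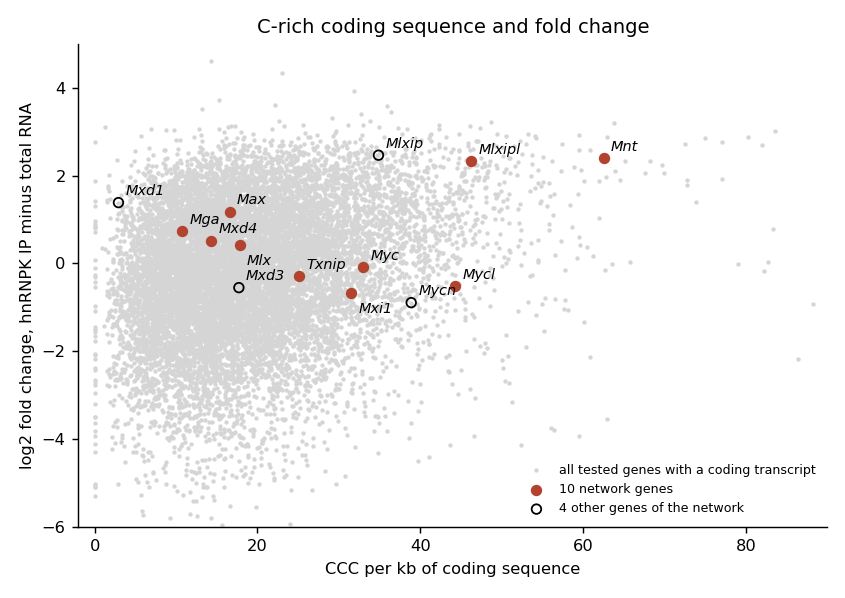
CCC per kb of coding sequence against log2 fold change (hnRNPK IP minus total RNA) for 13481 tested genes with a coding transcript (grey; 32 lie outside the axes), the 10 genes (filled) and 4 further network genes (open). Mnt and Mlxipl lie at upper right, and Mycl, with nearly the density of Mlxipl, lies below 0.

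The genes with the most similar pattern over the 6 libraries were found by the Euclidean distance of log2 CPM, each gene centred on its own mean, among 11173 tested genes with at least 5 CPM on average. Nearest to Mlxipl were Wasf3, a regulator of actin branching (distance 0.10, log2 fold change 2.35), Rasgrf1, an exchange factor for Ras (0.11 and 2.26), and Tigar, a fructose bisphosphatase that lowers glycolysis (0.11 and 2.36). Nearest to Txnip were Bysl, a factor of small ribosomal subunit assembly (0.11 and −0.36), Emd, the inner nuclear membrane protein emerin (0.12 and −0.30), and Rbck1, a subunit of the linear ubiquitin ligase (0.13 and −0.34). These 3 genes were called depleted (edgeR quasi-likelihood, BH-adjusted p = 0.0203 to 0.0431), where Txnip itself missed the threshold. Nearest to Myc were Sap30bp, Ensa and Gm5499, with distances of 0.09 to 0.10 and log2 fold changes of −0.06 to −0.05.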

How the data were processed

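The authors deposited whole-number read counts per gene, one table per library, without normalization. Per the submitters' processing notes, reads were aligned to mm10 with TopHat2 and counted with featureCounts. No source used here gives versions, annotation release or strand setting. Of 53379 identifiers, 53274 matched GENCODE release M21 (GRCm38). Even numbers made up 58.6% to 68.7% of the counts from 1 to 20 in a library, so halved counts were tried. The test was that of edgeR 4.0.16 in R 4.3.3, with glmQLFit and glmQLFTest on group and a Benjamini-Hochberg threshold of 0.05. It used TMM factors and filterByExpr with minimum count 10 and minimum total 15. The procedure was also run on simulated counts with few changed genes, balanced in direction, and the same dispersion in both groups. That setting lacks the many changes and the unequal spread of these libraries, so it does not test the calls under them. Alternatives used library totals, DESeq2 1.42.0 and its size factors, limma 3.58.1 voom, no filter, a gene-length offset (loess, span 0.5), a replicate block and each library left out. CPM used TMM factors, and log2 CPM a prior count of 2. No libraries agreed within sampling noise (chi-square over degrees of freedom 6.08 to 113), and no label names separate cultures, so p-values measure spread that may be technical. Named genes were the 14 network genes, up to 3 called genes at each end of each list, and the 3 nearest patterns of Myc, Mlxipl and Txnip. Huwe1, Trim32 and Sin3b were added because they went the other way from named genes of their kind. Members and lists were chosen with earlier results of these data known.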

Additional observations from a re-analysis of the deposited data

How the results depend on the processing

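Among the 10 genes, Mlxipl, Mnt and Max kept direction and call in every alternative run. With library totals alone 3 genes were enriched and 3 depleted, as Mxd4 (0.083) and Mga (0.30) lost their calls, Mlx turned to −0.023, and Mycl (−0.94) and Txnip (−0.72) were called depleted. The offset for gene length turned Mxd4 to −0.087, Mga to −0.21 and Myc to 0.088, with 4 members enriched, and left 1 further network gene depleted, 7 ChREBP and MondoA targets depleted and 3 genes around Txnip enriched. With limma-voom 2 members were depleted, as Txnip was called at −0.29. As each library was left out in turn, 5 to 6 members were enriched and 0 to 2 depleted, and 0 to 2 of the further network genes were depleted. Over these fits Myc ranged from −0.18 to 0.013 (without total RNA replicate 3), Mycl from −0.77 to −0.38, Mxi1 from −0.90 to −0.53 and Mlx from 0.27 to 0.53. With the replicate number as a block, Mlx was at 0.40 and lost its call (adjusted p = 0.0557), and no other member's call changed. The numbers are not shown to pair the libraries, since deviations of same-numbered libraries correlated at 0.00087, −0.071 and 0.12, and no IP library correlated best with its own number. Depth was lowest for Myc, Mycl and Mycn among the network genes, with 289 to 595 reads in the IP group.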
